A study of Mus musculus with 12 samples.

Results

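Long noncoding RNAs were examined in sorted mouse round spermatids, in input RNA of the cell extract and in RNA on polysomes. A fixed list held 8 genes: Malat1, Neat1, Gas5, Snhg1, Snhg11, Kcnq1ot1, Meg3 and Miat. Of these, 6 were present among the 28643 gene symbols used, and Snhg11 and Meg3 were not listed in the table used here. The question was how much of each RNA appears in the polysome fraction relative to the input. This bears on how free that fraction is of RNA that ribosomes are not expected to translate. Spermatids were sorted by flow cytometry under cycloheximide, a drug that halts elongating ribosomes, from testes of 8-week-old males. The controls were heterozygous (Igf2bp3+/-) and carried a disrupted allele of the RNA-binding protein gene Igf2bp3 too. The knockout group was homozygous (Igf2bp3-/-), with a Cas9 frameshift made in C57BL/6 zygotes, and by the study's methods knockout males with impaired fertility were selected. RNA-seq measured the input, a part of the supernatant left after detergent lysis and centrifugation. RNC-seq (ribosome nascent-chain complex sequencing) measured RNA from the same kind of extract that carried 4 or more ribosomes in a sucrose gradient. RNA left in the pellet was in neither assay, so the ratios do not describe the whole RNA of the cell. There were 3 replicates in each of the 4 groups, and values are FPKM, a read density per transcript length and library size.

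Long noncoding RNAs differ in where they act. Malat1 and Neat1 are nuclear RNAs, the former a component of nuclear speckles and the latter the scaffold of paraspeckles, and Kcnq1ot1 is an imprinted RNA that silences neighbouring genes on its own chromosome. Miat is a further nuclear-retained RNA. Gas5 and Snhg1 are hosts of small nucleolar RNAs (snoRNAs): the snoRNAs are cut from the introns, while the spliced exons reach the cytoplasm, where ribosomes are known to engage them and lead them into nonsense-mediated decay. Gas5 is also a classical gene of the 5′ terminal oligopyrimidine class, which it shares with ribosomal protein genes and which begins transcription with a C inside a run of C and T.

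The start sites are shown because Gas5 is known for this kind of start, a feature that was not used to choose the RNAs. Each sequence runs from 30 bases before to 30 bases from the start of transcription in RefSeq (GRCm38.p6), and capitals mark the unbroken run of C and T that begins at the first transcribed base.
Gas5, downstream start, chr1:161035136-161035195, plus strand: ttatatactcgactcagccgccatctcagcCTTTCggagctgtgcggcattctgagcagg
Gas5, upstream start, chr1:161034571-161034630, plus strand: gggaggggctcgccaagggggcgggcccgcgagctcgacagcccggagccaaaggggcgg
Snhg1, chr19:8723457-8723516, plus strand: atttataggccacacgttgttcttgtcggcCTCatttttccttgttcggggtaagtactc
Miat, chr5:112228919-112228978, minus strand: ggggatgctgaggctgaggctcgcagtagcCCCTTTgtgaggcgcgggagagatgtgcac
Malat1, chr19:5802643-5802702, minus strand: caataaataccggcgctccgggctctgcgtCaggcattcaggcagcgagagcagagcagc
Kcnq1ot1, chr7:143296518-143296577, minus strand: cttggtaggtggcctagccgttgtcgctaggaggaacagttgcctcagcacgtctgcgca
A start with C followed by at least 4 more bases of C or T, read on the transcribed strand only, was found at the downstream start of Gas5 and at the start of Miat, 2 of these 6 sites. Of all 32851 start sites in the same table, 2.51% had it. Snhg1 began with C, but its run ended after 3 bases. Neat1 was not in the table of start sites.

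Libraries were made from poly(A)-selected RNA, so runs of A within the annotated transcripts are shown for the single-exon RNAs with the longest such runs. The run is in capitals, with 24 bases on each side (GRCm38, GENCODE M21).
Kcnq1ot1, chr7:143226921-143227009, minus strand: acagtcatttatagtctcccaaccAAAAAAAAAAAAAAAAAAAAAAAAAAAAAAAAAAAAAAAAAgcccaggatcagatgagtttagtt
Malat1, chr19:5795964-5796023, minus strand: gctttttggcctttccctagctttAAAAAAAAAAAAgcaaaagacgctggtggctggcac
The run was 41 bases long in Kcnq1ot1, 12 in Malat1 and 7 in Neat1. That of Malat1 lies at bases 6674 to 6685 of the 6983 annotated, near the annotated 3′ end. Whether it is internal to the mature RNA was not examined. The mature 3′ end of Malat1 is known to be formed by RNase P and to lack a regular poly(A) tail. Capture through these runs was not tested.

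The RNAs differ in length and splicing. Malat1 (chromosome 19, 5795690 to 5802672) has an annotated single-exon transcript of 6983 bases, Neat1 (chromosome 19, 5824708 to 5845478) a single-exon transcript of 20771 bases and Kcnq1ot1 (chromosome 7, 143203458 to 143296549, antisense to Kcnq1) a single-exon transcript of 93092 bases. Miat (chromosome 5, 112213228 to 112229395) has 7 exons in its longest transcript of 9163 bases. Gas5 (chromosome 1, 161034422 to 161038539) has 25 annotated transcripts, of which 20 retain an intron. Its longest transcript has 2556 bases, and the longest without a retained intron has 665. Snhg1 (chromosome 19, 8723475 to 8726443) has 18 transcripts, 14 with a retained intron, and the corresponding lengths are 2728 and 709 bases. The longest open reading frame from an ATG in the longest transcript was 58 codons in Gas5, 66 in Snhg1, 64 in Malat1, 98 in Miat, 126 in Neat1 and 250 in Kcnq1ot1.

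Facts of the libraries bear on these values. The number of genes above 0 FPKM was 23554 to 25633 in RNA-seq and 21490 to 22797 in RNC-seq. The file gives no read counts, and what 1 fragment is worth was read from the commonest low value of 11485 single-transcript genes, which sets an approximate upper limit on the fragments behind each value. Relative depth was 1.0 in Igf2bp3-/- RNA-seq replicate 1 and 0.380 to 0.550 in the others. The transcript CT010467.1 took 5.68% to 13.3% of the summed FPKM in RNA-seq and 8.14% to 19.4% in RNC-seq. All 6 round spermatid markers (Acrv1, Spaca1, Acr, Izumo1, Tssk2 and Spata16) were above 0.1 FPKM in every group, with a summed FPKM of 965.2 to 1064 in Igf2bp3+/- and 1195 to 1362 in Igf2bp3-/- RNA-seq, which did not overlap, and of 1180 to 1320 and 1286 to 1626 in RNC-seq, which did. The labels call the replicates biological, and the study's methods give each mouse its own sort.

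Gas5 was the most abundant of the 6 RNAs in both assays. It was followed in Igf2bp3+/- RNA-seq by Malat1 and Snhg1 and then, at under 1 FPKM, by Neat1, Miat and Kcnq1ot1. In Igf2bp3+/- RNA-seq the mean was 22.3 ± 5.35 FPKM for Gas5, 8.72 ± 1.30 for Malat1 and 2.98 ± 0.515 for Snhg1 (SD, n = 3). It was 0.308 ± 0.0207 for Neat1, 0.236 ± 0.0546 for Miat and 0.184 ± 0.0225 for Kcnq1ot1. Neighbours in this order did not overlap between libraries down to Miat, whereas the Miat and Kcnq1ot1 libraries overlapped. In Igf2bp3-/- RNA-seq Neat1 and Miat also overlapped, at 0.110 to 0.177 and 0.121 to 0.247 FPKM. There the mean of Miat (0.191 FPKM) was above that of Neat1 (0.153 FPKM). In Igf2bp3+/- RNC-seq Snhg1 (2.84 to 4.43 FPKM) and Malat1 (1.65 to 3.79 FPKM) overlapped, so the second place was not separated there.

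**Figure D1:**
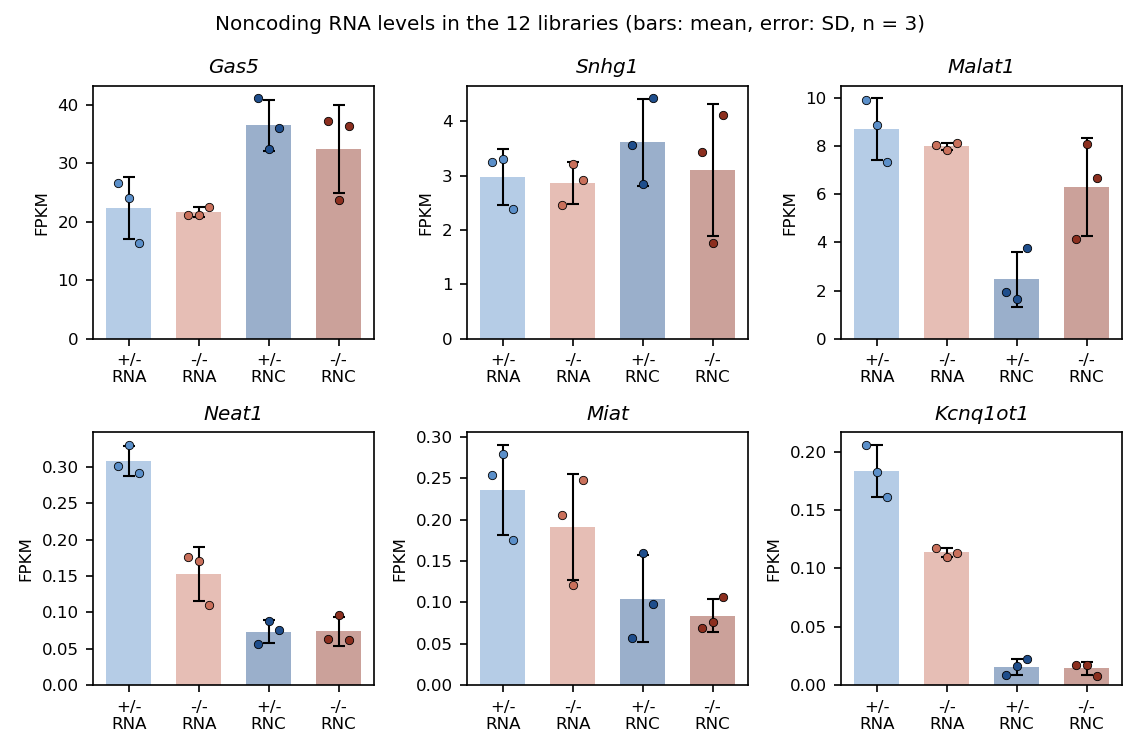
FPKM of the 6 long noncoding RNAs (1 panel each, axes from 0) in the 4 groups of genotype (+/-, -/-) and assay (RNA, RNC). Points are single libraries, bars are means and error bars are SD (n = 3). Gas5 was higher in RNC-seq, Kcnq1ot1 fell from 0.109 to 0.206 FPKM in RNA-seq to at most 0.0222 FPKM in RNC-seq, and Malat1 in RNC-seq differed between the genotypes without overlap.

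The first comparison set RNC-seq against RNA-seq over both genotypes and asked which of the RNAs were depleted on polysomes. Gas5 was higher on polysomes, Malat1, Neat1 and Miat were lower, and Snhg1 did not pass the test. Of the 5 RNAs that passed the filter on low values (a mean above 0.1 FPKM over the 12 libraries), 1 was higher and 3 were lower at a limma adjusted p under 0.05. Among all 19816 genes tested, 21.8% were higher and 29.8% lower, so calls in either direction were common. FPKM is scaled within each library, so these differences are relative to the other transcripts, and a ratio of 1 does not mean that all molecules carry ribosomes. The median log2 difference of all genes was -0.11, and it moved to 0.01 after median centring of the libraries, a scaling under which 5444 genes were higher and 4901 lower, against 4320 and 5911 as deposited. Rescaling without CT010467.1, which removed that transcript and also set all libraries to the same sum, gave 3086 higher and 7934 lower. As deposited, the summed FPKM was 459762 to 509397 in RNA-seq and 555464 to 624792 in RNC-seq. The parts of the removal and of the equal sums in this shift were not tested separately.

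Gas5 stood at 26.6, 24.0 and 16.3 FPKM in the Igf2bp3+/- RNA-seq libraries and at 21.2, 21.04 and 22.6 in the Igf2bp3-/- ones. In RNC-seq it stood at 41.1, 32.4 and 35.9 FPKM in Igf2bp3+/- and at 37.2, 23.7 and 36.4 in Igf2bp3-/-. Within each genotype every RNC-seq library was above every RNA-seq library, a pattern shown by 21.6% of all genes tested in Igf2bp3+/- and 18.2% in Igf2bp3-/-. The log2 difference over both genotypes was 0.64 ± 0.15 (SE), with a limma adjusted p of 0.00220, and the ratio of mean FPKM was 1.57. The difference passed in Igf2bp3+/- (log2 0.73 ± 0.21, limma adjusted p 0.0111) and missed the limit in Igf2bp3-/- (0.56 ± 0.21, adjusted p 0.0608). The difference in Igf2bp3+/- no longer passed without Igf2bp3+/- RNA-seq replicate 3 (log2 0.521, limma adjusted p 0.0603), the library with the lowest Gas5 value. The one in Igf2bp3-/- passed without Igf2bp3-/- RNC-seq replicate 2 (log2 0.766, limma adjusted p 0.00805) and without Igf2bp3+/- RNA-seq replicate 3 (0.555, adjusted p 0.038). It also passed with a replicate block (0.555, adjusted p 0.0498), which pairs the RNA-seq and RNC-seq libraries by number. Exons of all annotated Gas5 transcripts, of which 20 of 25 retain an intron, overlap snoRNA genes over 17.8% of their bases. The overlap of the spliced exons alone was not measured. How far any overlap makes the level of Gas5 uncertain was not measured either.

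Snhg1 differed from Gas5 in that its libraries overlapped between the assays. It stood at 3.25, 3.30 and 2.38 FPKM in Igf2bp3+/- RNA-seq and at 2.45, 3.21 and 2.91 in Igf2bp3-/- RNA-seq. In RNC-seq it stood at 3.57, 2.84 and 4.43 FPKM in Igf2bp3+/- and at 3.43, 1.76 and 4.11 in Igf2bp3-/-. The log2 difference was 0.15 ± 0.20 (SE) with a limma adjusted p of 0.552, and its sign turned (to -0.0652) when libraries were rescaled without CT010467.1. Exons of all annotated Snhg1 transcripts, of which 14 of 18 retain an intron, overlap snoRNA genes over 20.9% of their bases. The overlap of its spliced exons alone was not measured.

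Malat1 was the only member with over 1 FPKM that was lower on polysomes over both genotypes. In RNA-seq it stood at 9.93, 8.88 and 7.36 FPKM in Igf2bp3+/- and at 8.06, 7.85 and 8.14 in Igf2bp3-/-. In RNC-seq the Igf2bp3+/- libraries held 1.94, 1.65 and 3.79 FPKM, all below the RNA-seq libraries of that genotype. Of all genes tested, 33.8% had this pattern in Igf2bp3+/- and 21.6% the opposite one. The Igf2bp3-/- libraries held 4.13, 8.12 and 6.68 and overlapped the RNA-seq libraries. The log2 difference over both genotypes was -1.13 ± 0.20 (SE), with a limma adjusted p of 0.000437. It was -1.86 ± 0.29 in Igf2bp3+/- (limma adjusted p 0.000236), a mean of 28.2% of the input level, and -0.39 ± 0.29 in Igf2bp3-/- (adjusted p 0.338), a mean of 78.7%. Malat1 exons overlap a transcript on the opposite strand (Gm37376) over 6.49% of their bases, and the sources do not state a strand setting for quantification. At most about 253 to 493 fragments lay behind each Igf2bp3+/- RNC-seq value.

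Neat1 was listed at 0.301, 0.331 and 0.292 FPKM in Igf2bp3+/- RNA-seq and at 0.177, 0.171 and 0.110 in Igf2bp3-/- RNA-seq. In RNC-seq it was listed at 0.0563, 0.0876 and 0.0764 FPKM in Igf2bp3+/- and at 0.0631, 0.0970 and 0.0623 in Igf2bp3-/-. All 6 RNC-seq libraries were below all 6 RNA-seq libraries, as for 15.4% of all genes tested (10.6% had the opposite pattern). The log2 difference was -0.89 ± 0.21 (SE) with a limma adjusted p of 0.00304 and missed the limit after quantile normalization (-0.480, adjusted p 0.0566). The pseudocount of 0.1 exceeds the RNC-seq values and shrinks this difference, and with no filter and a pseudocount of 0.01 it was -1.45 (limma adjusted p 0.00561). The ratio of mean FPKM was 0.320.

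Miat was listed at 0.254, 0.280 and 0.175 FPKM in Igf2bp3+/- RNA-seq and at 0.205, 0.121 and 0.247 in Igf2bp3-/- RNA-seq. In RNC-seq it was listed at 0.0563, 0.160 and 0.0973 FPKM in Igf2bp3+/- and at 0.0691, 0.0757 and 0.106 in Igf2bp3-/-. Within each genotype the RNC-seq libraries were below the RNA-seq libraries, as for 33.8% of all genes tested in Igf2bp3+/- and 22.4% in Igf2bp3-/-. The log2 difference was -0.69 ± 0.23 (SE) with a limma adjusted p of 0.0237. The call ended when libraries were centred on their median (-0.571, limma adjusted p 0.0578), after quantile normalization (-0.295, adjusted p 0.293) and without any of 5 single libraries. Those were Igf2bp3+/- RNA-seq replicates 1 (log2 -0.668) and 2 (-0.643), Igf2bp3-/- RNA-seq replicates 1 (-0.667) and 3 (-0.620) and Igf2bp3+/- RNC-seq replicate 1 (-0.601). At most about 9.60 to 36.0 fragments lay behind each RNC-seq value. Of the exonic bases of Miat, 24.3% overlap Gm26953 on the opposite strand, and how far this makes its level uncertain was not measured.

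Kcnq1ot1 had the lowest ratio of the 6. It was listed at 0.206, 0.183 and 0.161 FPKM in Igf2bp3+/- RNA-seq and at 0.118, 0.109 and 0.114 in Igf2bp3-/- RNA-seq. In RNC-seq it was listed at 0.00853, 0.0165 and 0.0222 FPKM in Igf2bp3+/- and at 0.0172, 0.0175 and 0.00782 in Igf2bp3-/-. All 6 RNC-seq libraries were below all 6 RNA-seq libraries. That pattern was shown by 15.4% of the 19816 genes that passed the filter, which leave out Kcnq1ot1, and the opposite by 10.6%. The mean level on polysomes was 10.1% of the input level (8.57% in Igf2bp3+/- and 12.5% in Igf2bp3-/-). Its mean of 0.0818 FPKM over the 12 libraries kept it out of the fit as designed. With no filter, the log2 difference was -1.10 ± 0.15 (SE) with a limma adjusted p of 8.18e-05, and with a pseudocount of 0.01 as well it was -2.66. Of the 28208 genes tested with no filter, 4118 were higher and 6685 lower. The transcript is long, so that at most about 226 to 538 fragments lay behind each RNA-seq value and 14.8 to 41.8 behind each RNC-seq value.

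In Igf2bp3+/- alone, 1 of the 5 tested RNAs was higher (Gas5) and 2 were lower (Malat1 and Neat1, the latter at log2 -1.24 ± 0.30), where 17.6% of all genes were higher and 26.2% lower. In Igf2bp3-/- alone, none of the 5 passed (0), where 11.7% of all genes were higher and 14.4% lower. Centred on the median, the Igf2bp3+/- fit called 4823 genes higher and 4005 lower, against 3480 and 5197 as deposited, and rescaling without CT010467.1 gave 2615 and 6837. In Igf2bp3-/- that rescaling gave 1528 higher and 4514 lower, against 2322 and 2860. At an unadjusted limma p under 0.05, Gas5 was the only 1 of the 5 in Igf2bp3-/-, where 17.4% of all genes were higher and 21.2% lower at that limit. Neat1 there had a log2 difference of -0.53 ± 0.30 and Miat one of -0.65 ± 0.33. These calls in a single genotype do not show that the genotypes differ, which is tested further on.

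**Figure D2:**
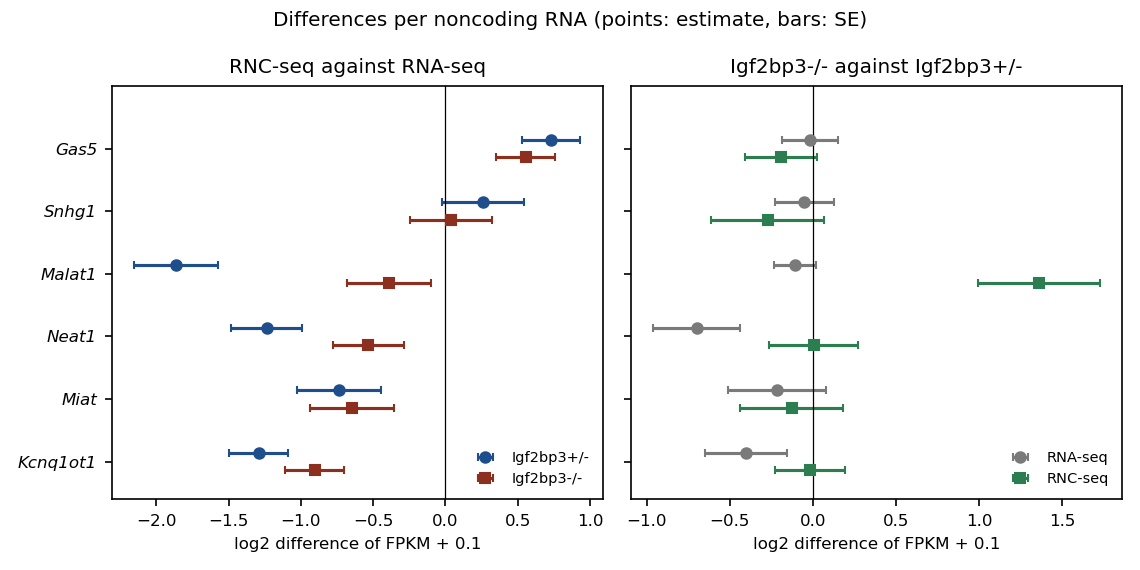
Estimated log2 differences of FPKM + 0.1 (points) with their SE (bars) for the 6 RNAs, from limma fits with no filter on low values, so that all 6 appear. The left panel sets RNC-seq against RNA-seq within each genotype and the right panel sets Igf2bp3-/- against Igf2bp3+/- within each assay. Malat1 shows the widest gap between genotypes on the left (-1.86 and -0.39) and stands at 1.36 in RNC-seq on the right.

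The ratio of RNC-seq to RNA-seq fell with annotated transcript length across the whole table. Among protein-coding genes with a mean RNA-seq level above 0.1 FPKM, the median ratio of mean FPKM was 1.57 for transcripts under 1 kb, 0.901 from 2 to 3 kb, 0.6004 from 5 to 10 kb and 0.472 from 10 kb. Set against genes of their own length class, most of the noncoding RNAs were not extreme. Malat1, with a ratio of 0.524 over both genotypes, lay above 38.6% of the 2486 genes from 5 to 10 kb, and Miat, with 0.440, above 26.4% of them. Neat1, with 0.320, lay above 28.8% of the 337 genes from 10 kb. Kcnq1ot1, with 0.101, lay above 1.19% of those genes, at the lower end of its class. The class from 10 kb has no upper limit, so it does not closely match the lengths of Kcnq1ot1 (93.1 kb) and Neat1 (20.8 kb). Whether either is low for its own length cannot be read from it.

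The genotypes differed in where Malat1 stood in its class. Its ratio was above 16.8% of genes from 5 to 10 kb in Igf2bp3+/- and above 61.4% in Igf2bp3-/-. The class moved too, with a median ratio of 0.524 in Igf2bp3+/- and 0.689 in Igf2bp3-/-. Miat, with ratios of 0.443 and 0.438, moved the other way, from above 39.7% to above 16.8% of that class. Kcnq1ot1 was above 2.07% and 0.599% of genes from 10 kb in the same order. For the snoRNA hosts the place depended on which transcript form is assumed. At its longest annotated length Gas5, with a ratio of 1.57, lay above 91.9% of protein-coding genes from 2 to 3 kb, and at its longest length without a retained intron above 49.8% of those under 1 kb. Snhg1, with 1.15, lay above 74.9% and 26.0% of them. These places are descriptions without a test, and library, length and level are shared by all the genes compared.

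**Figure D3:**
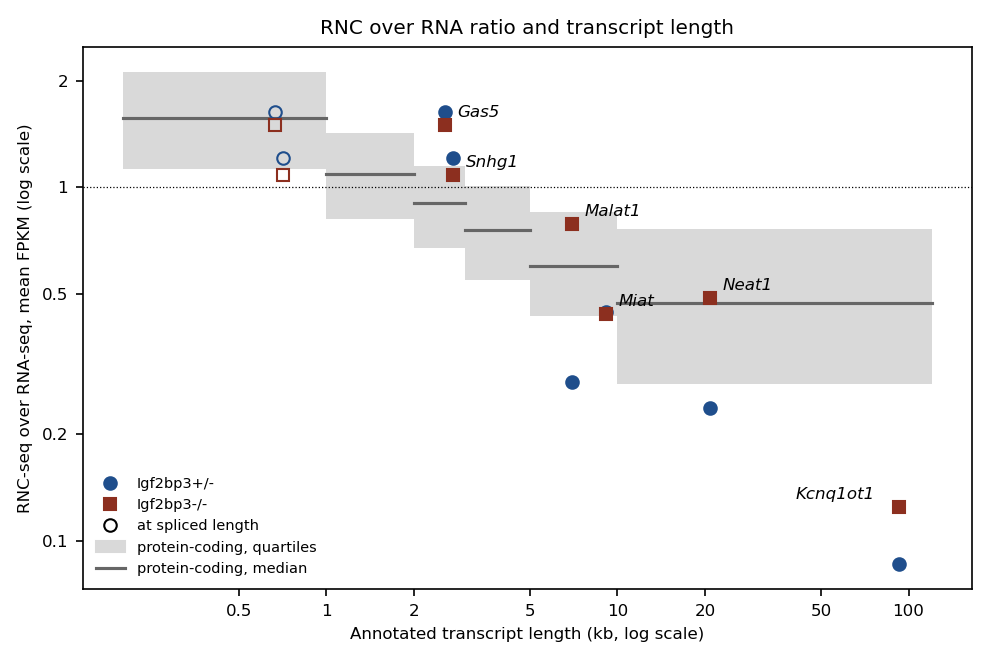
Ratio of mean RNC-seq to mean RNA-seq FPKM (log scale) against annotated transcript length in kb (log scale). Filled points are the 6 RNAs at their longest transcript in each genotype, open points are Gas5 and Snhg1 at their longest transcript without a retained intron, and grey bands and lines are the quartiles and median of protein-coding genes by length class over both genotypes. Median ratios step down from 1.57 to 0.472 with length. Kcnq1ot1 lies below the band in both genotypes, in a length class without an upper limit.

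Among annotated long noncoding genes as a class, RNA on polysomes was not generally depleted. Of 3182 tested, 34.1% were higher and 15.2% lower in RNC-seq, with a median log2 difference of 0.27, against 18.2% higher and 35.7% lower and a median of -0.21 for 13434 protein-coding genes. Their lengths differ, as 1680 of the noncoding genes were under 1 kb. In that length class the median was 0.45 for noncoding and 0.62 for protein-coding genes, and from 5 to 10 kb it was -0.33 for 38 noncoding and -0.63 for 2361 protein-coding genes. Within the noncoding class, 8.30% of genes lay below Malat1, 11.3% below Neat1, 14.8% below Miat, 43.2% below Snhg1 and 72.4% below Gas5.

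Other snoRNA hosts spread on both sides of Gas5. Of 19 listed, 17 were in the table and 13 were tested, of which 4 were higher in RNC-seq and 0 lower, with a median log2 difference of 0.13 beside -0.11 for all genes. The highest among those with a mean of at least 1 FPKM were Snhg8 (log2 1.52 ± 0.18 SE), Snhg6 (1.48 ± 0.23) and Snhg3 (1.35 ± 0.23), each past the limit and each with a longest transcript under 1 kb. The lowest were Snhg9 (-0.59), Snhg17 (-0.16) and Snhg5 (-0.02), none of which passed. With each library centred on its median, Snhg5 turned to 0.10 and the counts of the list stayed at 4 and 0. Gas5, at 0.64, was thus lower than the 3 leading hosts on this scale, a comparison without a test.

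A further list of noncoding RNAs was put together as chromatin-associated or imprinted. The list is mixed, and where its RNAs act in these cells was not tested. Of 23 listed, 14 were in the table and 11 were tested, with 5 higher and 2 lower and a median log2 difference of 0.46. Tug1 (-0.998 ± 0.151 SE, longest transcript 6.72 kb) and 2900097C17Rik (-1.12 ± 0.15) fell by about as much as Malat1. Dlx6os1 (1.01), Pvt1 (0.67) and Mirg (0.62) were higher, and Dleu2 stood at 0.03. Some imprinted or X-linked RNAs below the filter had ratios near that of Kcnq1ot1. Airn, which silences its imprinted cluster, had a ratio of mean FPKM of 0.0635, Snhg14 one of 0.0857, Ftx one of 0.139 and Rian one of 0.189, all at means under 0.1 FPKM. These 4 were named after their values were seen, and their RNC-seq means were only 0.00753 to 0.0218 FPKM. Other RNAs of the list in this paragraph went the other way. Mirg (ratio of mean FPKM 1.56), Peg13 (1.41), Jpx (1.17) and Nespas (1.04) lay above 1.

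As references for a translated fraction, 75 of 80 cytosolic ribosomal protein mRNAs were higher in RNC-seq and 0 lower, with a median log2 difference of 0.96. The reference lists were not matched for length. Among protein-coding genes under 1 kb, 54.7% were higher and 5.03% lower, with a median of 0.62. Of the stored spermatid mRNAs Tnp1, Tnp2, Prm1 and Prm2, 3 were higher and 1 lower, and with each library centred on its median 3 were higher and 0 lower. Mitochondrial mRNAs, which are read by ribosomes inside mitochondria and not by cytosolic polysomes, were higher for 11 of 13, with a median of 1.65. Gas5 at 0.64 lay below the medians of the ribosomal protein and mitochondrial lists, a comparison without a test and not matched for length.

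The genotype comparison in RNA-seq asked whether loss of Igf2bp3 altered the level of these RNAs. None of the 6 passed (0), where 0.197% of all 20352 genes were higher and 0.059% lower in Igf2bp3-/-. At an unadjusted limma p under 0.05, 1 of them, Neat1, was lower, where 10.4% of all genes were higher and 5.32% lower. That split of 2107 higher and 1083 lower genes was 1605 and 1430 after quantile normalization, and it turned to 1178 and 2150 when libraries were rescaled without CT010467.1. Its mean was 0.153 ± 0.0370 FPKM in Igf2bp3-/- against 0.308 ± 0.0207 in Igf2bp3+/- (SD, n = 3), a log2 difference of -0.70 ± 0.28 (SE, limma adjusted p 0.287). Kcnq1ot1 had 0.114 ± 0.00420 against 0.184 ± 0.0225 FPKM, a log2 difference of -0.41 ± 0.30 (limma adjusted p 0.534). For both RNAs every Igf2bp3-/- library was below every Igf2bp3+/- library. In the same RNA-seq libraries the sums of Sertoli markers (4.60 to 5.68 FPKM in Igf2bp3+/- and 9.15 to 9.55 in Igf2bp3-/-), of blood cell and macrophage markers (7.27 to 7.68 and 14.8 to 16.2) and of round spermatid markers also did not overlap, and their part in these differences was not tested. Peritubular marker sums overlapped (1.55 to 1.73 and 1.05 to 1.60 FPKM), with a lower median in Igf2bp3-/- (1.08 against 1.68). Those of spermatogonia, spermatocytes and elongating spermatids overlapped too. A lower level in every Igf2bp3-/- library was shown by 8.68% of all genes, and the opposite one by 14.1%. The log2 differences of Malat1 (-0.11 ± 0.13), Gas5 (-0.02 ± 0.17), Snhg1 (-0.05 ± 0.18) and Miat (-0.22 ± 0.31) were smaller than their SE. Those of Gas5 and Snhg1 turned sign when single libraries were left out.

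In RNC-seq, 3 of the 6 passed the filter and none of them passed the test (0), where 0.0787% of 19051 genes were higher and 0.0367% lower in Igf2bp3-/-. Centring on the median gave 6 higher and 7 lower genes against 15 and 7 as deposited. Malat1 was 2.56-fold higher by mean FPKM, at 6.31 ± 2.02 against 2.46 ± 1.16 FPKM (SD, n = 3), with every Igf2bp3-/- library above every Igf2bp3+/- library. The log2 difference was 1.36 ± 0.35 (SE, limma adjusted p 0.479), and Malat1 was the 1 member at an unadjusted p under 0.05, where 5.36% of all genes were higher and 1.12% lower. That split of 1022 and 213 genes was 528 and 440 after median centring, 497 and 482 after quantile normalization and 542 and 405 with rescaling. The same lack of overlap was shown by 9.44% of all genes, and the opposite by 1.85%. Gas5 (-0.19 ± 0.23) and Snhg1 (-0.27 ± 0.33) did not pass and turned sign without Igf2bp3-/- RNC-seq replicate 2, to 0.0177 and 0.0777. With no filter, the log2 difference was 0.00 for Neat1, -0.02 for Kcnq1ot1 and -0.13 for Miat.

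Markers of Leydig cells, the steroid-producing cells between the tubules, moved with genotype in the same libraries. All 7 markers (Insl3, Star, Cyp11a1, Cyp17a1, Hsd3b1, Hsd3b6 and Lhcgr) were in the table, 6 of them above 0.1 FPKM in Igf2bp3+/- RNC-seq and 7 in each other group. Their summed FPKM was 6.75 to 14.3 in Igf2bp3+/- RNC-seq and 51.5 to 102.9 in Igf2bp3-/- RNC-seq, and 15.4 to 22.6 against 48.6 to 55.0 in RNA-seq. In RNC-seq, markers of Sertoli cells summed to 1.79 to 2.05 FPKM in Igf2bp3+/- and 4.14 to 5.59 in Igf2bp3-/-, peritubular markers to 0.783 to 1.18 and 1.32 to 2.09, and markers of blood cells and macrophages to 12.0 to 14.7 and 17.3 to 35.3. Those of spermatogonia (7.70 to 8.47 and 8.24 to 10.1), spermatocytes (110.5 to 211.0 and 93.3 to 163.6) and elongating spermatids (11799 to 14204 and 10526 to 21210) overlapped between the genotypes. Leydig sums did not overlap between genotypes in either assay, and Malat1 did not overlap in RNC-seq but did in RNA-seq. In RNC-seq replicates 1, 2 and 3 of Igf2bp3-/-, Leydig sums of 102.9, 61.8 and 51.5 stood beside 4.13, 8.12 and 6.68 FPKM of Malat1. In those of Igf2bp3+/-, sums of 9.79, 14.3 and 6.75 stood beside 1.94, 1.65 and 3.79 FPKM. The part of these cells in the Malat1 difference was not tested. In bulk samples, a different share of a cell type and a different amount of RNA per cell cannot be told apart.

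**Figure D4:**
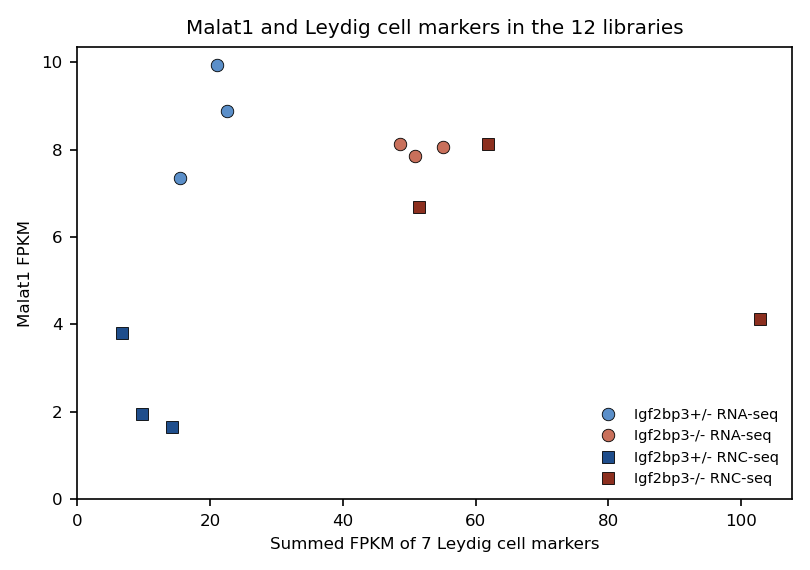
Malat1 FPKM against the summed FPKM of 7 Leydig cell markers, 1 point per library, circles for RNA-seq and squares for RNC-seq. The 3 Igf2bp3+/- RNC-seq libraries lie at 1.65 to 3.79 FPKM of Malat1 and marker sums of 6.75 to 14.3. The 3 Igf2bp3-/- RNC-seq libraries lie at 4.13 to 8.12 FPKM and sums of 51.5 to 102.9.

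Whether polysome loading relative to input differed between the genotypes was tested as the interaction of genotype and assay. None of the 3 tested RNAs passed (0), as against 0.00543% of 18414 genes higher and 0% lower. Malat1 had a log2 difference of ratios of 1.47 ± 0.41 (SE, limma adjusted p 0.686), was the 1 member at an unadjusted p under 0.05, and lay between 1.19 and 1.82 over the alternatives. Gas5 (-0.17 ± 0.29) and Snhg1 (-0.22 ± 0.40) had differences below their SE. At an unadjusted p under 0.05, 5.54% of all genes had a higher and 1.58% a lower ratio in Igf2bp3-/-. That split of 1021 and 291 genes depended on the scaling, and was 492 and 1080 after median centring, 698 and 717 after quantile normalization and 897 and 442 with rescaling.

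By Pearson's r of log2(FPKM + 0.1) over the 12 libraries, among 12265 genes with a mean of at least 1 FPKM, the profile of Malat1 was most like those of Gm5460 (r = 0.965) and P2rx2 (0.950). Gas5 was most like the noncoding genes C230038L03Rik (0.990) and 1700125H03Rik (0.982), both higher in RNC-seq, at 16.97 and 49.7 FPKM against 8.34 and 22.5 in RNA-seq. Snhg1 was most like Stard3nl (0.893) and 4921530L21Rik (0.885). The 12 libraries share 2 assays and 2 genotypes, which shape these correlations.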

How the data were processed

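Round spermatids of Igf2bp3+/- and Igf2bp3-/- males were profiled by RNA-seq and RNC-seq (12 libraries). The deposited values are FPKM in 1 table, made by the authors. Per the labels and methods, reads were trimmed with Trim Galore 0.6.6, mapped by HISAT2 to GRCm38, and StringTie 2.1.7 gave the expression values. The annotation release and strand use are not given in the sources used here. The labels and the methods name different library kits and instruments. Replicate groups were taken from the labels, in which the columns named WT are Igf2bp3+/-. Of 28668 symbols, 25 turned into dates were left out, and 27839 of the others matched GENCODE M21, which gave positions, biotypes and lengths. FPKM was not rescaled.

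Values were tested as log2(FPKM + 0.1) with limma 3.58.1 (R 4.3.3), moderated with an intensity trend, two-sided and Benjamini-Hochberg adjusted over all genes with a mean above 0.1 FPKM (in each assay for the interaction), with a limit of 0.05. On the log2(FPKM + 0.1) scale the changes of low genes come out too small. RNC-seq was set against RNA-seq in 1 fit of the 12 libraries, and genotypes were compared over the 6 libraries of each assay. The fits were tested on simulated data. Read depth is unknown, and no interval from counting was computed. Fragment limits are FPKM times the longest transcript length over the value of 1 fragment. The alternatives were pseudocounts of 1 and 0.01, no filter, a mean above 1 FPKM, median centring, quantile normalization, rescaling without CT010467.1, library weights, no trend, a replicate block, a fit of a single genotype and leaving out each library. Named genes were the 8 listed RNAs, the 2 genes most like each member with a mean of at least 1 FPKM, and the 3 highest and 3 lowest of each further noncoding list at that level. Members and lists were chosen with earlier results of these data known. Marker lists were measured as sums. Near-identical copies of the named genes were not searched.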

Additional observations from a re-analysis of the deposited data

How the results depend on the processing

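Each alternative changed 1 choice and kept the rest, except for no filter with a pseudocount of 0.01, which was chosen after seeing the data. The cause of a change was not tested unless given. Over both genotypes, 4 members were called in RNC-seq against RNA-seq. A mean above 1 FPKM left 2, since only 3 members were then tested, and quantile normalization left 2. Leaving out single libraries gave 3 to 4. In Igf2bp3-/- no member was called (0), and 1 was called with no filter (Kcnq1ot1), with no filter and a pseudocount of 0.01 (Kcnq1ot1), with a mean above 1 FPKM (Gas5), with median centring (Gas5), with library weights (Gas5) and without the intensity trend (Neat1). Leaving out single libraries gave 0 to 1, the latter without Igf2bp3+/- RNA-seq replicate 3 or Igf2bp3-/- RNC-seq replicate 2. In Igf2bp3+/- 3 members were called, 2 to 3 without single libraries and 2 with a mean above 1 FPKM. There 4 were called with no filter (Kcnq1ot1 added, also with a pseudocount of 0.01), and Miat was added by rescaling without CT010467.1 (adjusted p 0.0392), library weights (0.0414) and no intensity trend (0.0275), all from limma. The genotype and interaction comparisons gave 0 members under every alternative run. Malat1 kept its direction in every alternative, from -1.35 to -0.937 over both genotypes and from 1.09 to 1.71 between genotypes in RNC-seq, as did Gas5 over both genotypes (0.42 to 0.762).

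By the methods RNA-seq and RNC-seq used parts of the same extracts, but the sources do not say that equal replicate numbers mark the same mouse. The correlation of the deviations of same-numbered libraries from their group means ranged from -0.104 to 0.205 over 12265 genes, and not every pair was above 0.1, so the pairing was not established. With a replicate block, 1 member (Gas5) passed in Igf2bp3-/- and 4 over both genotypes. The block changed no other call of a member.

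Differences that did not pass and turned sign were those of Snhg1 and Gas5. Rescaled without CT010467.1, Snhg1 was -0.0652 over both genotypes and -0.174 in Igf2bp3-/-. Without single libraries, Snhg1 ranged from -0.199 to 0.39 for RNC-seq against RNA-seq in Igf2bp3-/-, from -0.199 to 0.0519 between genotypes in RNA-seq, from -0.512 to 0.0777 in RNC-seq and from -0.461 to 0.129 in the interaction. Gas5 ranged from -0.227 to 0.123 between genotypes in RNA-seq, from -0.306 to 0.0177 in RNC-seq and from -0.316 to 0.0361 in the interaction. Depth limits Miat, Neat1 and Kcnq1ot1, whose RNC-seq values rest on at most about 9.60 to 51.8 fragments each. Over all genes, the 40 higher and 12 lower genes between genotypes in RNA-seq were 4 and 0 with a replicate block, 23 and 8 with no filter, 27 and 8 without the trend, 54 and 30 with library weights, and from 5 to 27 higher and 2 to 11 lower without single libraries. The 15 and 7 in RNC-seq were 6 and 7 after median centring, 5 and 7 after quantile normalization, 2 and 0 with no filter, 1 and 0 without the trend, and from 0 to 15 and 0 to 5 without single libraries, the lowest without Igf2bp3-/- RNC-seq replicate 1.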
